A study of Mus musculus with 8 samples.

Results

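Epithelial cells of the kidney tubule are held together by adherens junctions, in which cadherins of neighbouring cells bind each other, and by tight junctions, which seal the space between cells. Scaffold proteins on the inner side of the tight junction tie its membrane proteins to the actin skeleton. In the collecting duct this seal keeps the water and salt gradients that vasopressin acts on. The genes described here are 9 of the 21887 protein-coding genes in the RefSeq gene table. They were listed by name, with no threshold on a measured value, by a choice made with earlier results of these data known. They encode the cadherins E-cadherin (Cdh1) and kidney-specific cadherin (Cdh16), the adhesion protein Epcam, the tight junction membrane proteins occludin (Ocln) and junctional adhesion molecule A (F11r), the scaffold proteins ZO-1 (Tjp1), ZO-3 (Tjp3) and cingulin (Cgn), and Esrp1. Esrp1 is not a junction protein but a splicing regulator of epithelial cells, so the set is one of junction and epithelial adhesion genes rather than of scaffolds alone. For each gene the window was its RefSeq span plus 20 kb on each side, and all H3K27ac peaks that overlapped the window were taken.

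H3K27ac, histone H3 acetylated at lysine 27, marks active promoters and enhancers. It had been mapped by ChIP-seq in mpkCCD cells of clone 11, a mouse line of the cortical collecting duct that stands for 1 clone in culture. Cells of both groups were grown to confluence on permeable supports and kept 24 h in medium without serum or hormones. They were then given 0.1 nM dDAVP, a vasopressin analogue selective for the V2 receptor, or its vehicle for 24 h. The series has 2 experiments, each with 1 dDAVP and 1 vehicle library, and the labels do not say how separate the cultures were, so the spread between lists may be technical. The authors deposited 1 peak list per immunoprecipitated library, called against an input of the same treatment and experiment.

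The 4 lists differed in size, which bears on every comparison of covered length. Tags kept per immunoprecipitated library ranged from 27923780 to 32705755, and the shortest list, that of dDAVP in experiment 2, came from 31676748. The lists held 37235 peaks over 99.0 Mb (dDAVP) and 39745 over 104 Mb (vehicle) in experiment 1, and 20124 over 33.5 Mb (dDAVP) and 29597 over 56.9 Mb (vehicle) in experiment 2. All 8 collecting duct markers, Aqp2 and Gata3 among them, had a peak at the gene start in all 4 lists. Of 11 mesenchymal genes and repressors of junction genes 8 had one in no list, among them Cdh2, Zeb1, Zeb2 and Snai2, and Twist1 had one in all 4. The endothelial (4 genes) and leukocyte (3 genes) markers had a start peak in no list, and of 3 proximal tubule markers Slc34a1 and Slc5a2 had one in no list and Lrp2 in all 4. Neither thick limb marker, Slc12a1 or Umod, had one in any list.

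All 9 genes had a peak within 1 kb of the gene start in all 4 lists, where 45.9% of protein-coding genes had one. The promoter table gives a start for 6 of them, and for Cdh1, Cdh16 and Esrp1 either end of the span was accepted. For those 6 the start and the 250 bases before it lay wholly under a peak in every list, and 38.8% of the genes with a start in that table had a peak over it in all 4 lists. Of these promoters, 4 are shown because they span the range of sequence found under these peaks, from the GC-rich Cgn (70.4% G or C) to the AT-rich Tjp3 (43.2%). They are RefSeq sequence of build GRCm38.p6, which is mm10, 5′ to 3′ on the strand of the gene, with the base next to the start at the right end. Capitals mark motifs found by the search described after them. Positions are Epcam chr17:87635729-87635978, plus strand, Tjp3 chr10:81291582-81291831, minus strand, Cgn chr3:94786483-94786732, minus strand, and F11r chr1:171437311-171437560, plus strand.
Epcam: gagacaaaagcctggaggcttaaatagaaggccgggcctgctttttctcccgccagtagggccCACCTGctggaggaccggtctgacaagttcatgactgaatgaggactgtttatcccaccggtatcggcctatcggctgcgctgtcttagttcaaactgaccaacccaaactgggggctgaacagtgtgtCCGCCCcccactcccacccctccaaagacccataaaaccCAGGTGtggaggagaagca
Tjp3: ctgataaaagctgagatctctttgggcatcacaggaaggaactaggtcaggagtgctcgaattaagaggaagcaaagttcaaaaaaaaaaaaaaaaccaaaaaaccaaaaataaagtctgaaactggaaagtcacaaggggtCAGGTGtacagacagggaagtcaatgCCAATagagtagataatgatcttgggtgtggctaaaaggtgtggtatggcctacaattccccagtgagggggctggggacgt
Cgn: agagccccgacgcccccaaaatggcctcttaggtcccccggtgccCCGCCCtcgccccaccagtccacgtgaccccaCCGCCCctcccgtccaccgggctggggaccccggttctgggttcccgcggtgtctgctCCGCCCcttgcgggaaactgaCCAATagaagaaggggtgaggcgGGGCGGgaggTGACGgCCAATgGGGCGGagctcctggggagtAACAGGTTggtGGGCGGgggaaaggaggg
F11r: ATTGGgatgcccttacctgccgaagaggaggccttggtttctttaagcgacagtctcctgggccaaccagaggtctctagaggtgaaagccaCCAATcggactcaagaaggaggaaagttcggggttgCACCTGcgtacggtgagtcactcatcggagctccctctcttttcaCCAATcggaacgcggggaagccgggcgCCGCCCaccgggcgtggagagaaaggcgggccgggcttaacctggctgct
The search covered both strands of these 250 bases for CACCTG (the E-box that Snail and Zeb repressors bind), AACCGGTT and its looser form AACNNGTT (grainyhead-like factors), CCGGAAG (Ets factors), GGGCGG (the GC box of Sp and KLF factors), CCAAT (the box that NF-Y binds), TATAAA (the TATA box), TGACGTCA (the cAMP response element) and TGACG, which is part of it. A match to AACCGGTT is also one to AACNNGTT, and a match to TGACGTCA holds TGACG. For Ocln and Tjp3, which have 2 listed starts each, only the promoter at the high-coordinate end of the span was searched. The shares given are over all promoters in the table, with or without a peak. A GC box was present in 5 of the 6 promoters, all but Tjp3, against 32.7% of the 32851 promoters in the table. Cgn had 6 of them. The E-box was found in Epcam (at -187 and -19 from the start), F11r (-122) and Tjp3 (-108), against 17.2% of all promoters. CCAAT was found in Cgn, F11r and Tjp3, against 33.8%. Cgn alone held AACNNGTT (3.64% of all promoters) and TGACG (17.8%). The whole cAMP response element (1.55% of all promoters), the whole grainyhead motif (0.116%), the Ets motif (6.91%) and the TATA box (12.4%) were found in none of the 6. A match of letters is a description of these windows and shows no binding.

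Peaks over the start were narrower with dDAVP in both experiments for 5 of these 6 genes, beside 47% of the 6793 genes with a start under a peak in all 4 lists. The median ratio of widths, dDAVP to vehicle, was 0.897 in experiment 1 and 0.890 in experiment 2 for the 6 genes, and 0.996 and 0.825 for all 6793. At Epcam the peak over the promoter printed above was 6017 bp wide after dDAVP against 10180 bp after vehicle in experiment 1, and 2581 against 2980 bp in experiment 2. Into the gene, the peak of experiment 1 reached 5033 bp past the start with dDAVP and 8896 bp with vehicle, and before the start 983 and 1283 bp. A second dDAVP peak of 1410 bp followed in experiment 1, from 6190 to 7599 bp past the start, so that 7427 bp of this stretch were under peaks with dDAVP in 2 pieces.

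At Ocln the start peak measured 2743 and 3088 bp in experiment 1 and 2232 and 2744 bp in experiment 2, in the order dDAVP, vehicle, and was shorter on both sides of the start. The authors' fold enrichment of that peak was 6.86 and 9.32 in experiment 1 and 6.10 and 10.2 in experiment 2. These folds stood at percentiles 89.6, 96.9, 85.2 and 96.8 of their own lists in the same order. They describe each peak within its list, and were not compared between lists.

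Tjp3 and Cgn had the widest start peaks of the 6 in experiment 1. At Tjp3 they measured 17577 and 21206 bp in experiment 1 and 8998 and 9327 bp in experiment 2. In all 4 lists this peak also reached the near end of Pip5k1c, so its width is not that of Tjp3 alone. At Cgn they measured 12155 and 12756 bp, then 7596 and 7819 bp. At F11r the values were 8158 and 9008 bp, then 7554 and 8270 bp. Tjp1 was the exception, with 3241 bp (dDAVP) against 2832 bp (vehicle) in experiment 1, then 1734 against 3817 bp. Its listed start lies 75 kb from the low-coordinate end of a span of 232 kb, so that this peak is also intragenic.

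**Figure D1:**
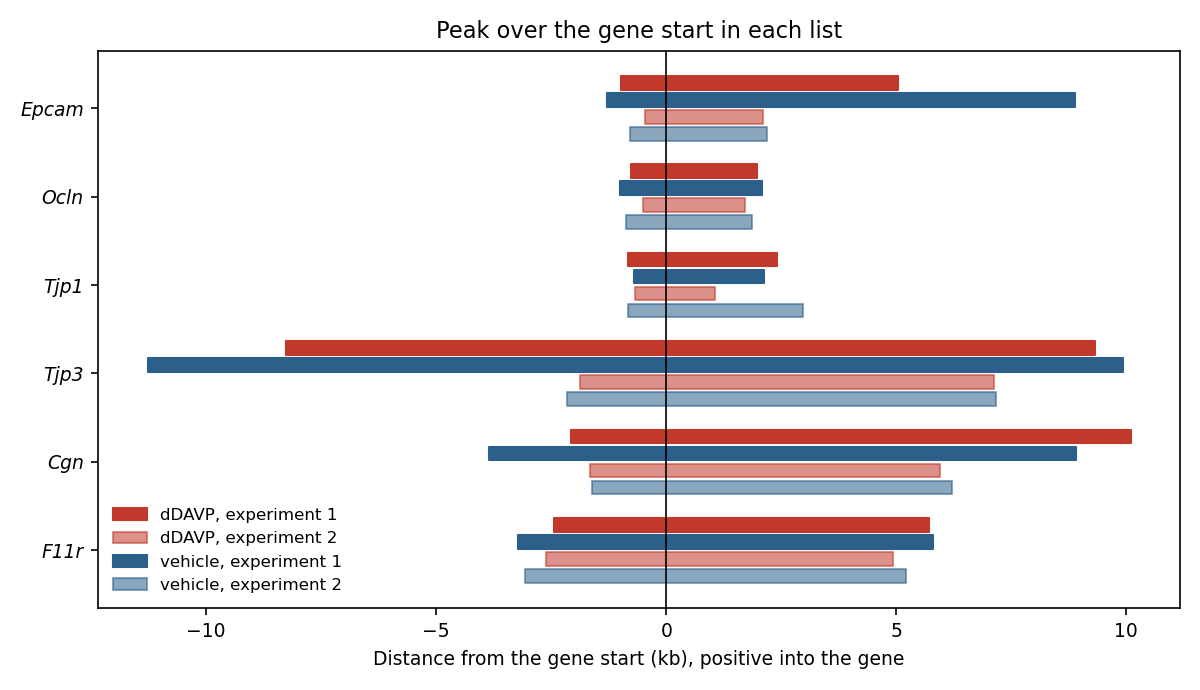
Extent of the peak over the gene start in each list, in kb from the start and positive into the gene, for the 6 genes with a listed start; each bar is 1 peak, red for dDAVP and blue for vehicle, paler for experiment 2. In 5 genes the red bar is shorter than the blue bar of the same experiment both times, and Tjp1 departs in experiment 1.

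Over the whole windows, the number of bases under peaks was lower with dDAVP in both experiments for 6 of the 9 genes and higher in both for none. Among the 13566 protein-coding genes covered in all 4 lists, 52.5% were lower in both and 2.34% higher in both. No test was made of how far 6 of 9 differs from that share. In experiment 2 all 9 were lower with dDAVP, as were 96.3% of those genes, and in experiment 1 it was 6, beside 53.8%. No member had both dDAVP lists above both vehicle lists, beside 0.0811%. The median ratio of dDAVP to vehicle was 0.982 in experiment 1 and 0.723 in experiment 2 for the 9 genes, and 0.985 and 0.694 for all. The mean authors' fold of peaks in the windows, weighted by length, ranged over the 9 genes from 3.41 to 7.66 (dDAVP) and 3.82 to 7.86 (vehicle) in experiment 1, and from 4.54 to 6.84 and 4.57 to 8.12 in experiment 2. With 2 lists against 2 no gene can pass an exact test. The smallest p reached was 0.333 (exact permutation test over the 4 lists, two-sided, for Tjp1), the smallest that this design allows. Values below are therefore described without a test.

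Cdh1 (chromosome 8, 106603350 to 106670247) had the most covered bases of the 9 genes in every list. In experiment 1 its window held 52747 bp under peaks after dDAVP and 54095 bp after vehicle, and in experiment 2 it held 22863 and 31629 bp. Group means were 37805 ± 21131 bp with dDAVP and 42862 ± 15886 bp with vehicle (SD, n = 2), so the groups overlapped widely. In experiment 1 a single peak of 46893 bp (dDAVP) or 47591 bp (vehicle) ran from before the low-coordinate end far into the gene. In experiment 2 that stretch was called as 4 separate peaks in each list, which summed to 21398 bp with dDAVP and 28671 bp with vehicle. The widest of them was 10571 bp with dDAVP and 22003 bp with vehicle, and the stretch that the vehicle list joined near the low-coordinate end was called as 3 peaks with dDAVP, of 3284, 5068 and 10571 bp.

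Cdh16 (chromosome 8, 104601915 to 104624396), the cadherin gene of kidney tubules, had 20657 bp (dDAVP) and 24083 bp (vehicle) in experiment 1, then 5873 and 9583 bp in experiment 2. The difference within an experiment, dDAVP minus vehicle, was -3426 and -3710 bp (mean -3568 ± 201, SD, n = 2 pairs). In bases this difference had the smallest SD of the 9 genes, while the group values overlapped because the experiments differed more than the treatments. As ratios the experiments were further apart, 0.858 and 0.613. The SD of the log2 ratio was 0.343, above that of Tjp3 (0.198), Cgn (0.218), F11r (0.266) and Cdh1 (0.305). Epcam, Ocln, Tjp1 and Esrp1 had larger ones. Its widest peak lay at the high-coordinate end and measured 7215 bp (dDAVP) against 11577 bp (vehicle) in experiment 1, then 2359 against 3869 bp. The window also holds Pdp2, Rrad and Ciao2b, and their peaks are counted in it.

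Epcam (chromosome 17, 87635979 to 87651127) has no other gene of the table in its window. It held 9379 bp (dDAVP) against 10756 bp (vehicle) in experiment 1, then 2581 against 4546 bp. In dDAVP of experiment 2 the start peak was the only peak in the window.

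Ocln (chromosome 13, 100496504 to 100552718) had 15920 and 15991 bp in experiment 1, and 6162 and 10304 bp in experiment 2, in the order dDAVP, vehicle. The difference was -71 bp in experiment 1 and -4142 bp in experiment 2, so the first is close to 0.

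Tjp1 (chromosome 7, 65296165 to 65527850) was the only one of the 9 genes in which both dDAVP lists lay below both vehicle lists, a pattern shown by 5.52% of the 13566 genes. It had 11516 and 13373 bp in experiment 1 and 5899 and 14041 bp in experiment 2, which gives 8708 ± 3972 bp with dDAVP and 13707 ± 472 bp with vehicle (SD, n = 2). It was also the only member whose vehicle list covered more in experiment 2 than in experiment 1. The other 8 were lower in experiment 2 with both treatments, beside 96.2% of genes. In experiment 2 its ratio of 0.420 stood at percentile 13.2 of all genes. The pattern was lost when the lists were trimmed to the same covered length: no base of the window was under a peak in either list of experiment 1, and experiment 2 had 5899 bp (dDAVP) against 7242 bp (vehicle), a ratio of 0.815.

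Tjp3 (chromosome 10, 81273188 to 81291581), F11r (chromosome 1, 171437561 to 171464593) and Esrp1 (chromosome 4, 11331933 to 11386783) had more covered bases with dDAVP in experiment 1 and fewer in experiment 2. Tjp3 had 29335 and 27051 bp, then 11551 and 12932 bp, in the order dDAVP, vehicle. F11r had 23496 and 21330 bp, then 13360 and 15743 bp. Of these, 7442 and 7312 bp, then 3362 and 3982 bp, lay in a flank region. Merged over the 4 lists, that region reaches ends of Usf1, Tstd1 and Gm26641. The start peak of F11r also covers an end of Gm26641, so the window values are not those of F11r alone. Esrp1 had 20434 and 15447 bp, then 8458 and 9354 bp. Set against the median gene of each experiment, these 3 had the higher relative coverage with dDAVP in both, by 1.10 and 1.29 times for Tjp3, 1.12 and 1.22 times for F11r, and 1.34 and 1.30 times for Esrp1. Cdh16, Epcam and Tjp1 were below the median gene in both. By this measure 28.4% of all genes were above and 28.4% below in both experiments, so 3 and 3 of 9 is close to the background.

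Cgn (chromosome 3, 94760069 to 94787725) had 24693 and 25151 bp in experiment 1, and 10532 and 13282 bp in experiment 2. Its direction was reversed in lists cut to equal covered bases, where it had more with dDAVP in both experiments.

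**Figure D2:**
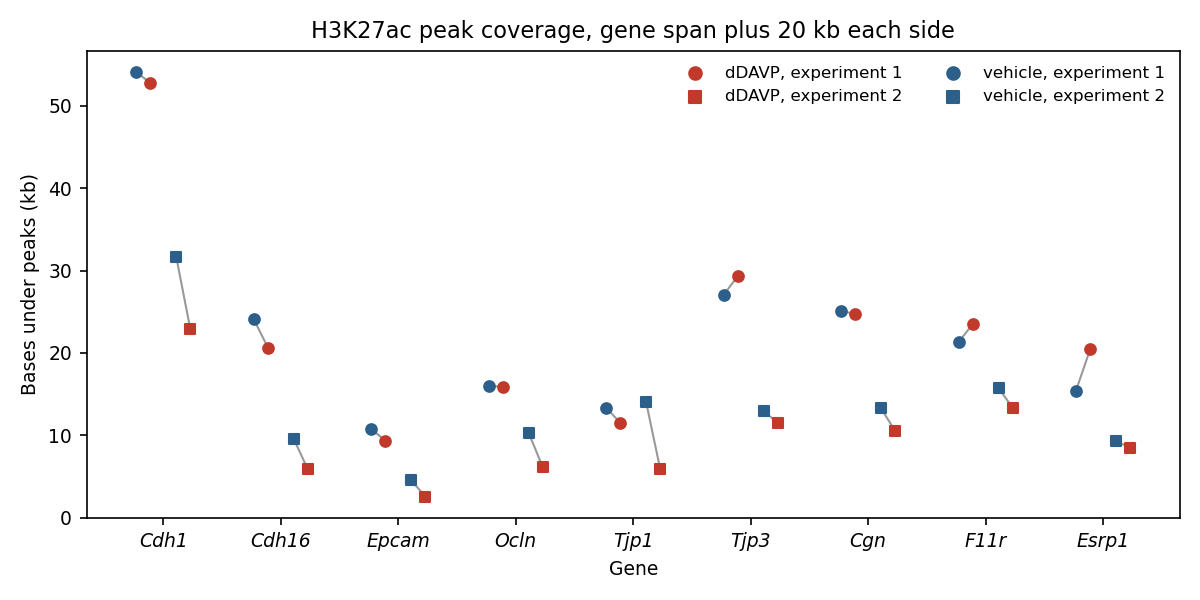
Bases under H3K27ac peaks in each gene's window (kb), 1 point per list, red for dDAVP and blue for vehicle, circles for experiment 1 and squares for experiment 2, with a line joining the lists of an experiment. All 9 pairs of squares slope down from vehicle to dDAVP, while Tjp3, F11r and Esrp1 slope up in experiment 1.

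**Figure D3:**
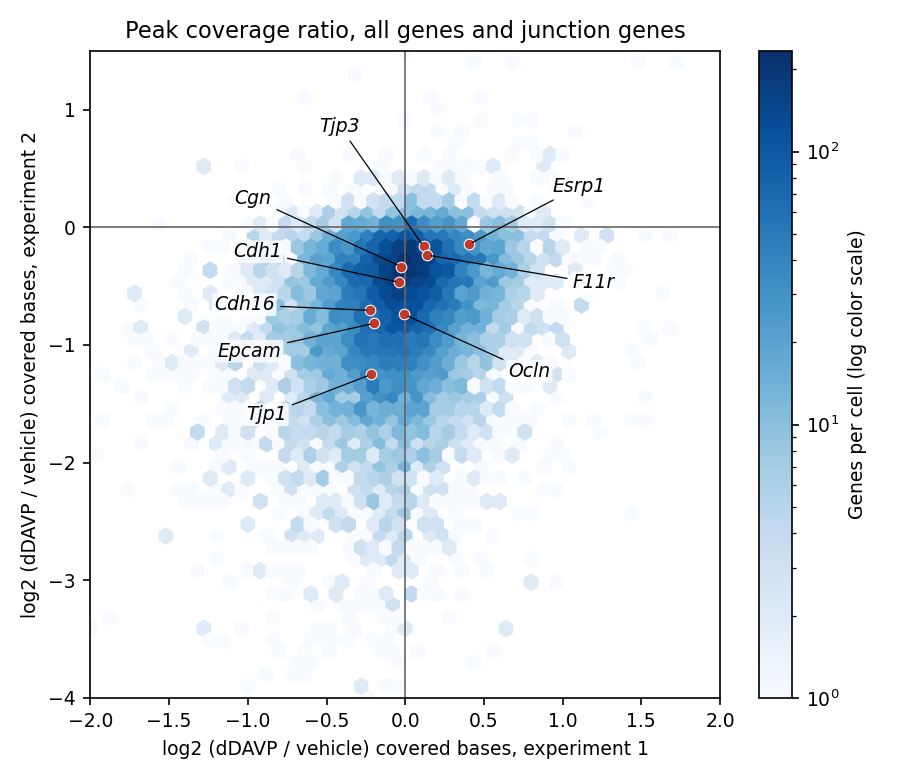
Ratio of covered bases, dDAVP to vehicle, on a log2 scale in experiment 1 (horizontal) and experiment 2 (vertical); shading counts 13539 protein-coding genes and 27 genes lie beyond the axes. The 9 labelled genes lie within the cloud of all genes, Esrp1 towards its upper right and Tjp1 towards its lower left.

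These counts depended on the window and on the lists. Without flanks, over the gene span alone (a setting chosen after seeing the data), 3 of the 9 genes, Cdh16, Epcam and Tjp1, were lower in both experiments, beside 45.5% of 10839 genes, and Esrp1 was higher in both, beside 5.53%. With lists cut to equal length 6 were lower in both, beside 49.1% of genes. Of these 6, 4 (Cdh1, Cdh16, Epcam and Tjp1) were genes of the first count, with Tjp3 and F11r in place of Ocln and Cgn. Lists of equal length still covered 78.4 Mb (dDAVP) and 80.8 Mb (vehicle) in experiment 1, then 33.5 and 48.5 Mb. With lists cut to equal covered bases 4 genes, Cdh16, Epcam, Ocln and Tjp3, were lower in both, beside 36.0% of genes. Every dDAVP list was also required to lie below every vehicle list. Leaving out dDAVP replicate 2 or vehicle replicate 1 then left 1 gene, Tjp1, beside 6.66% and 6.37% of genes. Leaving out dDAVP replicate 1 gave 9, beside 95.9%.

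The widest peak in the window was narrower with dDAVP in both experiments for 7 of the 9 genes and wider in both for none, beside 48.8% and 4.18% of the 13566 genes. The exceptions were Ocln, with 8313 bp (dDAVP) and 7763 bp (vehicle) in experiment 1, and Esrp1, with 5576 and 4964 bp. In experiment 1 the count was 7 of 9, beside 52.2%, and in experiment 2 all 9, beside 92.4%. Both exceptions were narrower in experiment 2, Ocln with 3495 and 4909 bp and Esrp1 with 3829 and 4004 bp. Median ratios of the 9 genes were 0.906 and 0.866, and those of all genes 0.991 and 0.779. In lists of equal length 7 were again narrower in both, beside 48.8%. For Tjp1 (3536, 4025, 2433 and 3817 bp in dDAVP 1, vehicle 1, dDAVP 2 and vehicle 2) and F11r the dDAVP lists lay below the vehicle lists without overlap, beside 6.17% of genes. Without vehicle replicate 1 or without dDAVP replicate 2 these 2 were the only members left by that stricter comparison, beside 7.46% and 7.36% of genes.

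Inside the genes, leaving out 1 kb at each end, covered bases were lower with dDAVP in both experiments for 4 of the 9 genes (Cdh16, Epcam, Tjp1 and Cgn) and higher in both for 1, Esrp1. Of the 5719 genes with intragenic coverage in all 4 lists, 47.3% were lower and 4.98% higher in both. In experiment 1 alone 4 were lower, beside 50.7%, and in experiment 2 alone 8, beside 89.4%. Median ratios of the 9 genes were 1.01 in experiment 1 and 0.931 in experiment 2, and those of the 5719 genes 0.996 and 0.625. Cdh16 had 5121 intragenic bases under peaks (dDAVP) against 9308 (vehicle) in experiment 1, then 222 against 476, which is 1.08% and 2.32% of its body. At Epcam they were 41.4% and 60.1%, then 8.46% and 9.08%. Leaving out 3 kb at each end, 7 genes had bases left in all 4 lists. Of these 7, 2 (Tjp1 and Cgn) were lower in both, beside 53.2% of 3147 genes. Cdh16 and Epcam had none left in experiment 2 and could not be counted. Cgn had a mean log2 ratio above 0 inside the gene in lists of equal length, in lists of equal covered bases, and among peaks whose -log10 q reached 5 (0.06 in each). Cdh1 had the largest shares in experiment 1, 71.0% (dDAVP) and 70.2% (vehicle), and had 30.4% and 41.7% in experiment 2, where Tjp3 had 37.4% and 37.6%. When every dDAVP list had to lie below every vehicle list, Tjp1 alone was lower, beside 6.56% of genes. Its intragenic bases equal those of its whole window in every list, so this repeats the result for covered bases. Tjp1 stayed alone without vehicle replicate 1 or dDAVP replicate 2, beside 7.58% and 8.10%. Without dDAVP replicate 1 that comparison gave 8 genes, beside 88.9%.

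Esrp1 had 10556 intragenic bases (dDAVP) against 6922 (vehicle) in experiment 1, then 2924 against 2179. The difference was 3634 and 745 bp (mean 2190 ± 2043, SD, n = 2 pairs), so its spread was nearly as large as its mean. A pair of its intragenic regions had more bases with dDAVP in both experiments. The region at chromosome 4, 11363998 to 11366803, measured 2806 bp (dDAVP) against 917 bp (vehicle) in experiment 1, then 1405 against 881 bp. The region at 11367963 to 11373870 measured 5576 and 4435 bp, then 645 and 511 bp. The high-coordinate end of Esrp1 did not follow, with 4859 and 4964 bp, then 3829 and 4004 bp. Authors' folds in the first region were low, 2.59, 2.49, 3.16 and 2.95 in dDAVP 1, vehicle 1, dDAVP 2 and vehicle 2, all below the median of their own lists. The order of Esrp1 also held in lists of equal length, and not in lists of equal covered bases, where its intragenic bases in experiment 1 were 1563 with dDAVP and 1570 with vehicle. Every dDAVP list was also required to lie above every vehicle list. Without dDAVP replicate 1 or vehicle replicate 2 no member was then higher, beside 0.401% and 0.551% of genes. Without dDAVP replicate 2 there were 5, beside 42.3%.

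Tjp1 held several separate acetylated regions along its long span, 4 of which were called in at least 3 lists besides the start. The gene is on the minus strand and its listed start is at 65371244. All 4 have higher coordinates, so they lie inside the span but before that start. The region at chromosome 7, 65429930 to 65431937, measured 792 bp (dDAVP) against 1772 bp (vehicle) in experiment 1, then 941 against 2008 bp. The region at 65467406 to 65471704 measured 3536 and 4025 bp, then 2433 and 3425 bp. The region at 65481723 to 65485074 was called with 2889 and 3301 bp in experiment 1 and with 3329 bp with vehicle in experiment 2, and was not called with dDAVP in experiment 2. It was weak where called. The authors' folds were 2.41, 2.71 and 3.05 in dDAVP 1, vehicle 1 and vehicle 2, at percentiles 14.0, 35.4 and 36.9 of their own lists.

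**Figure D4:**
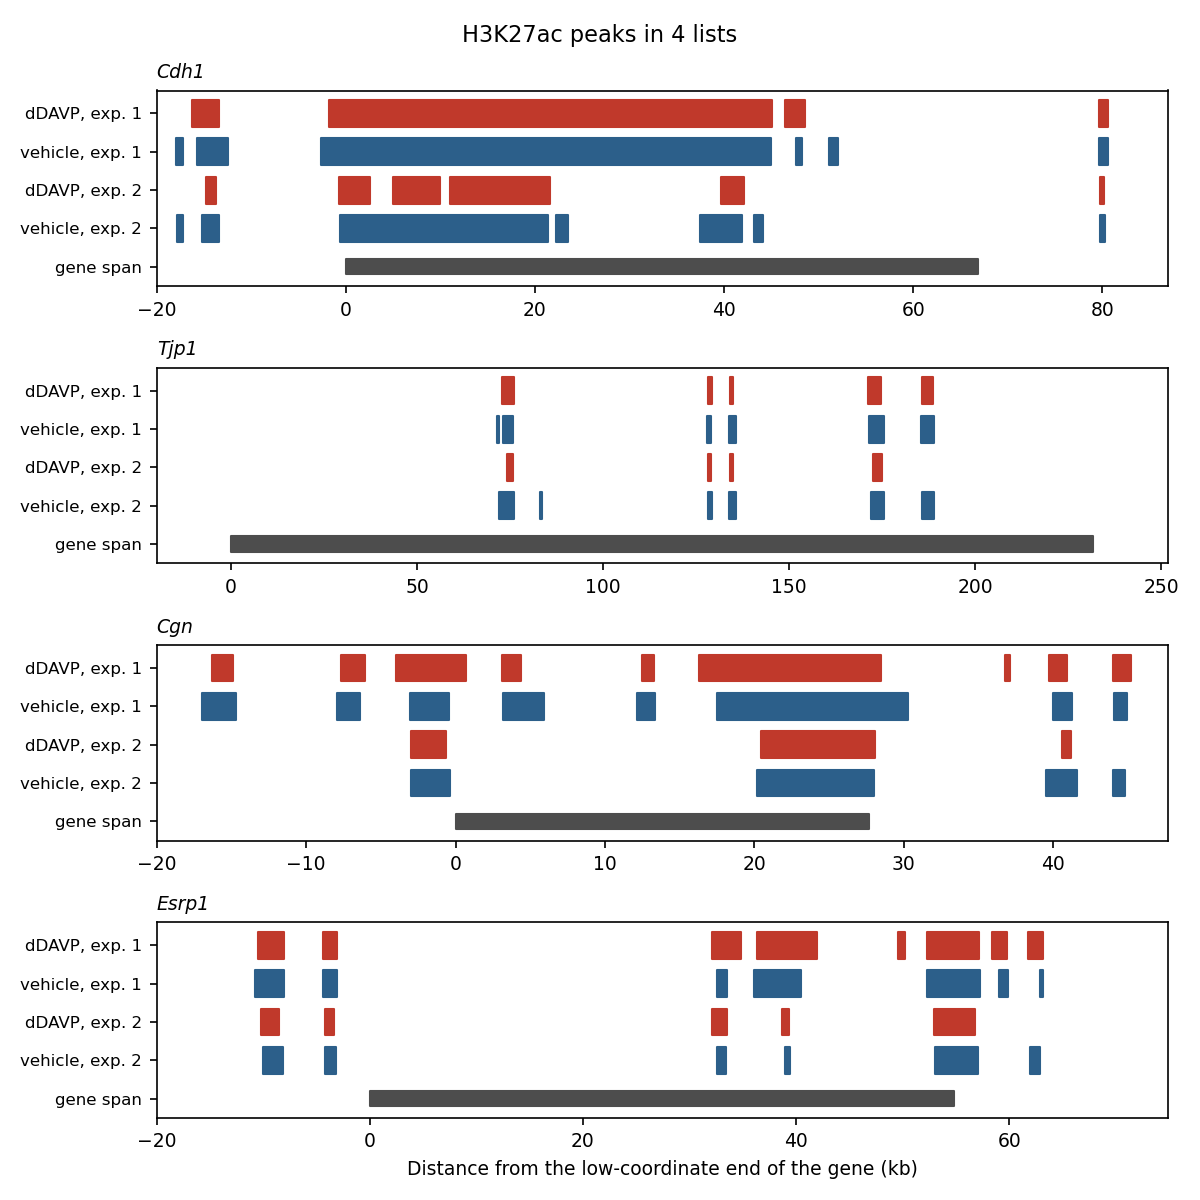
Peaks in the 4 lists along the windows of Cdh1, Tjp1, Cgn and Esrp1, in kb from the low-coordinate end of each gene, whose span is the grey bar; red is dDAVP and blue is vehicle. The long peak of Cdh1 in experiment 1 is broken into separate peaks in experiment 2, and the high-coordinate region of Tjp1 is missing in dDAVP of experiment 2.

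**Figure D5:**
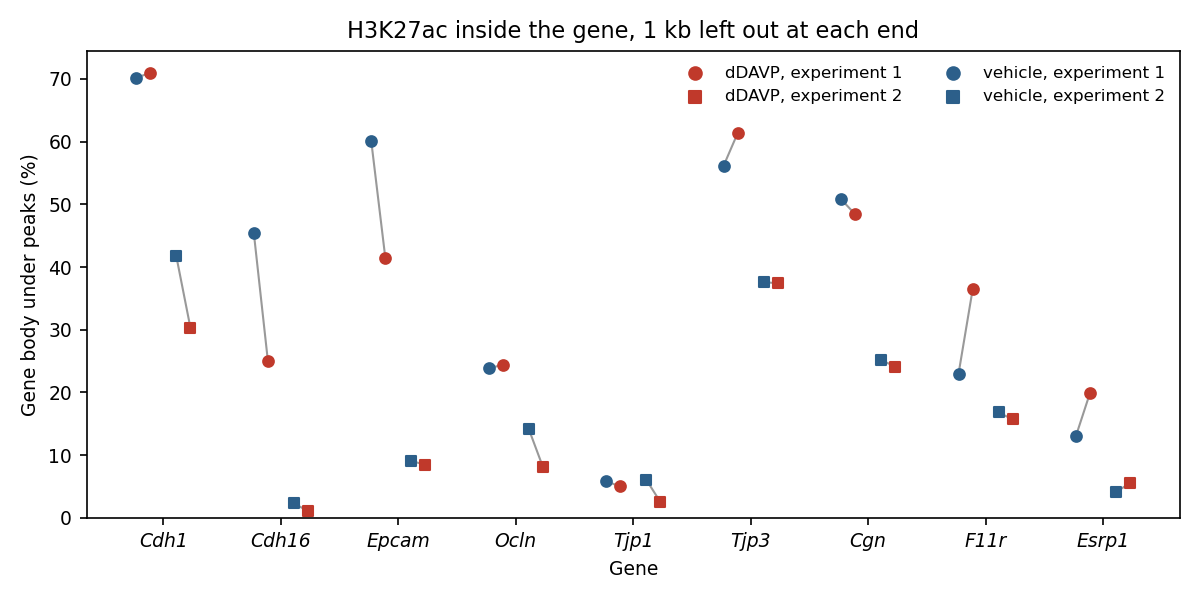
Share of the gene body under H3K27ac peaks (%), leaving out 1 kb at each end, 1 point per list, with colours and symbols as in the plot of covered bases. Cdh1 has the highest shares in experiment 1, from 70.2 to 71.0%, and Esrp1 is the gene whose red point lies above the blue one in both experiments.

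Merged over the 4 lists, the windows held 67 regions. Of these, 30 were called in all 4 lists, beside 36.2% of all 45705 regions. At listed starts all 6 regions were called in all 4 lists, at other gene ends 4 of 5, inside the genes 7 of 27, and in the flanks 13 of 29. Among the 30, 19 had fewer bases with dDAVP in both experiments and 2 had more in both, beside 51.3% and 4.78% of the 16537 such regions of the genome. The 2 that had more were the intragenic regions of Esrp1 described above. Regions called in both dDAVP lists and in no vehicle list numbered 0, beside 0.0635%. The reverse class held 1 region, beside 2.51%, in the flank of Cdh1 (chromosome 8, 106585382 to 106586162), with 781 and 662 bp and the authors' fold of 2.67 and 2.53. Regions missing in dDAVP replicate 2 alone numbered 4, beside 12.6%, and lay in Ocln, in Tjp1 and in the flanks of Cgn and Esrp1. None was missing in vehicle replicate 2 alone, beside 0.394%. The deposited list of dDAVP replicate 2 is also the shortest, and the part of its length in these absences was not tested. A further 13 regions were called in dDAVP replicate 1 alone, 7 in vehicle replicate 1 alone and 10 in both lists of experiment 1 alone, beside 11.9%, 15.4% and 16%. F11r had 3 intragenic regions of the first kind, of 1237, 907 and 730 bp. Their folds of 2.57, 2.30 and 2.29 stood at percentiles 27.3, 5.05 and 3.12 of that list. Intragenic coverage of F11r in that experiment was 9124 bp, against 5763 bp with vehicle. Its mean log2 ratio over the experiments, 0.282, became -0.060 among peaks whose -log10 q reached 5. The value was the same in lists of equal length and of equal covered bases.

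Other junction genes, 42 of 43 listed names found in the table and claudins left out, were read in the same way. They include catenins, partner scaffolds, polarity proteins, nectins and desmosome proteins. A start peak was present in all 4 lists for 38 of the 42, beside 45.9% of protein-coding genes. It was present in no list for 3, Magi1, Nectin1 and Jam3, which are named after their values were seen. Of 40 genes covered in all 4 lists, 25 were lower with dDAVP in both experiments, 1 higher in both and 14 mixed, again beside 52.5% and 2.34%. Median ratios were 0.930 and 0.669. The gene higher in both was Nectin3, an adhesion protein of adherens junctions, with 8528 bp (dDAVP) and 6834 bp (vehicle) in experiment 1, and 5292 and 4492 bp in experiment 2. Jam2, a junctional adhesion molecule, was among the 3 highest although lower in both experiments, with ratios of 0.903 and 0.932. It had a start peak in only 1 list. At the other end were Cxadr, a tight junction adhesion protein (19886 and 31883 bp, then 5008 and 10299 bp), the scaffold gene Magi3 (ratios 0.546 and 0.674) and Igsf5 (ratios 0.731 and 0.354).

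The median profile of the 9 genes was 20657, 21330, 8458 and 12932 bp in dDAVP 1, vehicle 1, dDAVP 2 and vehicle 2. Outside the set, the genes nearest to it by Euclidean distance of log2 covered bases over the 4 lists were Ifrd2 (distance 0.0741), Cdc25b (0.0893) and Retreg1 (0.0919), and 398 genes lay within 0.5. Medians of the 13566 genes covered in all 4 lists were 7171, 7309, 2519 and 3910 bp in the same order. Each of the 9 windows thus held more covered bases than the median gene in every list. These bases were not scaled to window length, and the 271686 bp window of Tjp1 was 2.17% to 5.17% covered.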

How the data were processed

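H3K27ac peak lists of 4 libraries were used, 2 with dDAVP and 2 with vehicle. Per the submitters' processing notes, reads were aligned to mm10 with BWA and handled with SAMtools. Per the file headers, MACS 2.1.1.20160309 called broad peaks per library against its own input, with q limits of 0.01 (strong) and 0.1 (broad), at most 1 tag per position and no pooling. The pileup signal, fold enrichment (a ratio to local background), -log10 p-value and -log10 q-value are the authors' deposited values per peak; the names of the last pair of columns were lost and were read from their order and values. The lists are attached to the input records, and their headers name the immunoprecipitated library of the same treatment and experiment. Peak names in both lists of experiment 2 carry an experiment number of 3, and the labels' number was kept.

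With Python 3.11.15 and pandas 2.3.3, peaks on the 19 autosomes and X and Y were kept, and bases under any peak were counted per protein-coding gene of the RefSeq table (GRCm38.p6). Fold was used only within a list. dDAVP was compared with vehicle within each experiment; across 13566 genes, lists of the same experiment deviated together from their group means (r = 0.610, across genes, which are not independent replicates). Counts for the 9 genes stand beside those of all genes, and no set test was made. Code was checked on simulated lists. The members, gene lists and motifs were chosen with earlier results of these data known. Named genes are the 9 members, neighbours in their windows, the 3 highest and 3 lowest of the other junction genes by ratio (1 of them is not reported here), the 3 nearest profiles and the markers. Alternatives were a -log10 q of at least 5, lists of equal length or covered bases, other windows, a 50% overlap and left-out lists. No read counts were used, so depth gives no interval per value.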

Additional observations from a re-analysis of the deposited data

How the results depend on the processing

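Covered length moves with how much each list called, and the dDAVP list of experiment 2 covered least. Counts of the 9 genes kept within 1.5 times of the reported ones at a -log10 q of at least 5, with windows of 50 kb, and in lists of equal length except that 1 gene, Esrp1, then had more covered bases in both experiments. In lists of equal covered bases 1 gene, Cgn, had more covered bases in both (mean log2 ratio 0.074), beside 14.7% of genes. In those lists 0 had more intragenic bases, beside 12.8%, and 1 was above the median gene. With windows of 10 kb, 5 genes were above the median gene. Leaving out 3 kb at each end, 2 of the 7 genes with bases left in all 4 lists had fewer intragenic bases, beside 53.2%. When at least 50% of a peak had to lie within the start window, 2 genes kept a start peak in all 4 lists. That window is 1 kb on each side of the start, so wide peaks such as those of Tjp3, Cgn and F11r could not pass. This count therefore follows peak width and shows no loss of start peaks. The share of all genes was not computed for it. Over the gene span alone, 3 genes had fewer and 1 had more covered bases.

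Without pairing by experiment (no replicate block), 1 gene had fewer covered bases, 2 a narrower widest peak, 1 fewer and 0 more intragenic bases. The shares of all genes were 5.52%, 6.17%, 6.56% and 0.297%. Within pairs the smallest exact permutation p was 0.5, and without pairs 0.333. Leaving out an experiment or a list gave 1 to 9 genes with fewer covered bases and 0 to 3 with more. Shares of covered genes with fewer ran from 6.37% to 96.3% over these settings, and with more from 0.0957% to 45.5%. The same settings gave 2 to 9 with a narrower widest peak, beside 7.36% to 92.4% of genes. A wider one was found in 0 to 2, beside 0.191% to 47.2%. They gave 1 to 8 with fewer intragenic bases, beside 7.58% to 89.3%, and 0 to 5 with more, beside 0.401% to 45.5%. From 3 to 5 were above the median gene, and all 9 kept their start peak. Mean log2 ratios of single genes were recomputed 193 times, in the other lists, windows and overlaps and without either experiment, but not without single lists or without pairing. Of these, 24 had the other sign. For 5 of the 24 the gene had had 1 direction in both experiments: covered bases of Cgn (0.074) and Cdh1 (0.00051) in lists of equal covered bases, and intragenic bases of Cgn (0.057 in each) in those lists, in lists of equal length and among peaks whose -log10 q reached 5. The causes were not tested.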

Other observations

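The windows of the junction genes also reach ends of other genes, and the peaks there are part of the covered bases given above. Tango6, beside Cdh1, had a peak at its end of 989 bp (dDAVP) and 977 bp (vehicle) in experiment 1, and of 414 and 521 bp in experiment 2. At Gtf2h2, a subunit gene of the general transcription factor TFIIH beside Ocln, the peak measured 910 and 1062 bp, then 215 and 730 bp. At Dpy19l4, beside Esrp1, it measured 2439 and 2691 bp, then 1750 and 1883 bp. These 3 were narrower with dDAVP in experiment 2, and Gtf2h2 and Dpy19l4 also in experiment 1. The shared peak at Mrpl54 and Apba3 beside Tjp3 measured 7929 bp with dDAVP and 5566 bp with vehicle in experiment 1, and 2553 and 2864 bp in experiment 2.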
